A study of Mus musculus with 12 samples.

Results

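Transcripts of 10 cytosolic and small heat shock proteins were followed in isolated muscle fibers of young and aged mice. The genes were *Hspa1a*, *Hspa1b*, *Hspa8*, *Hsph1*, *Hsp90aa1*, *Dnajb1*, *Hspb1*, *Hspb6*, *Hspb7* and *Cryab*, chosen by name among the 55367 gene symbols of the expression tables, and all 10 were found. Fibers came from the extensor digitorum longus (EDL), a fast hindlimb muscle. Aged fibers were sorted by eye under a fluorescence stereomicroscope after staining with Fluo-4, a dye whose fluorescence reports calcium. Of the 12 libraries, 4 were from fibers of young mice (Young, 3–4 months), 4 from aged fibers with an ordinary Fluo-4 signal (Fluo-4 normal, 26–28 months) and 4 from aged fibers with an aberrant one (Fluo-4 abnormal, 26–28 months), which in aged male mice carry tubular aggregate-like arrays of sarcoplasmic reticulum. The strain named in the methods is C57BL/6 J. Aged mice came from another institute than the vendor named for that strain, so age and source cannot be told apart. Isolation used collagenase at 37°C for 80–90 min and staining took 30 min, so no group shows undigested muscle, and whether the Young fibers were stained is not stated. Neither the labels nor the methods give the number of fibers or mice behind a library, so p-values measure the spread between these libraries, which may be technical. Levels are given in TPM, a unit of relative transcript abundance that is scaled for transcript length, so that genes can be set side by side. Because TPM is relative to all RNA of a library, more of 1 transcript and less of the others cannot be told apart.

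Heat shock proteins are chaperones, which hold or refold proteins that have lost their shape. The HSP70 proteins work in cycles with J-domain partners such as DNAJB1, which deliver clients, and with HSP110 (HSPH1), which renews their nucleotide, whereas HSP90 takes over clients at a later stage. Small heat shock proteins such as HSPB1 and αB-crystallin (CRYAB) bind unfolding proteins without ATP, are abundant in striated muscle and associate with the sarcomere and its cytoskeleton under stress. *Hspa1a*, *Hspa1b*, *Hsph1* and *Dnajb1* are classical targets of heat shock factor 1 (HSF1), while *Hspa8* encodes the constitutive HSP70.

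The sequence before the start of the principal transcript of these genes is shown because heat shock factors bind inverted repeats of the unit GAA. The members differed in exact matches to such repeats within 300 bases. For *Cryab* and *Hspb6* among those printed, this stretch lies inside the annotated span of the gene. In the 300 bases before the start of the principal transcript, 5 of the 10 members (*Hspa1a*, *Hspa1b*, *Hsph1*, *Hspb1* and *Cryab*) held at least 1 pair of inverted units, GAANNTTC or TTCNNGAA, each of which reads the same on both strands. Such a pair was found in 15.0% of the 21736 protein-coding genes with a window of that length. A run of 3 units (GAANNTTCNNGAA or TTCNNGAANNTTC), which contains the shorter pairs, was in 0 of the 10 members and in 0.483% of all windows. The last 150 bases before the start are given below (GRCm39, 5′ to 3′ on the strand of the gene), with each pair in capitals, for 3 members with a pair and for *Hspb6* and *Hspb7*, the members with the smallest p between groups.
Hspa1a, chr17:35191133-35191282, minus strand: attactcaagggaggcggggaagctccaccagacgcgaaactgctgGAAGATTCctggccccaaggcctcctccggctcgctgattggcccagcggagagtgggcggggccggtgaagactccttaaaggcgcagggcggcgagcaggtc
Hspb1, chr5:135916610-135916759, plus strand: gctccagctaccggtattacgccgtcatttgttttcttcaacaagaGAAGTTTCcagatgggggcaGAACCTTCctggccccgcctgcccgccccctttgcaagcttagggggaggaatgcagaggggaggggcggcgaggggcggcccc
Cryab, chr9:50664037-50664186, plus strand: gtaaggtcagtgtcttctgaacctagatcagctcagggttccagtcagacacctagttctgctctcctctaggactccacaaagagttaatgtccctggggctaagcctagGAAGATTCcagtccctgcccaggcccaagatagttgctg
Hspb6, chr7:30252212-30252361, plus strand: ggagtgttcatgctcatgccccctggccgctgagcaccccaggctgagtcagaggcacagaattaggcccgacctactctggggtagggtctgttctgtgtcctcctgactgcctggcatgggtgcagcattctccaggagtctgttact
Hspb7, chr4:141147940-141148089, plus strand: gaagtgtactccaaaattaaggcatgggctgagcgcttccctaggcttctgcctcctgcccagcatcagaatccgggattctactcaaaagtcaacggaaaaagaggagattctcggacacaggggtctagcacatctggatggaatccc
The pair began 104 bases before the start of *Hspa1a* and of *Hspa1b*, 104 and 84 bases before that of *Hspb1*, 39 before that of *Cryab* and 28 before that of *Hsph1*. These 150 bases differed between *Hspa1a* and *Hspa1b* at 1 position, and the 300 bases at 18. A match of letters is a description of the window and does not show that a factor binds there. The lack of an exact match does not show that none binds.

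All 10 members passed the filter on low values (a mean of at least 0.02 TPM in a group), as did 14429 genes in all. In Young fibers *Hspb6* was highest among the members, with a mean of 1158 TPM (SD 38.3, n = 4), rank 90 of the genes tested. *Hspb1* followed at 956 ± 84.7, *Cryab* at 854 ± 23.5 and *Hspa8* at 763 ± 43.8. *Hspa1b* (149 ± 28.3), *Hspa1a* (145 ± 29.2), *Hsp90aa1* (94.2 ± 10.7), *Dnajb1* (60.4 ± 6.10), *Hspb7* (35.3 ± 1.35) and *Hsph1* (21.1 ± 3.64) were lower. Of the neighbours in this order, *Hspa1b* and *Hspa1a* lay within 1 SD of each other, and the ranges of *Hspb1* and *Cryab* met, from 837 to 1036 and from 828 to 885 TPM. The 10 genes made up 0.393% to 0.448% of all TPM in Young, 0.475% to 0.592% in Fluo-4 normal and 0.430% to 0.565% in Fluo-4 abnormal libraries.

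**Figure D1:**
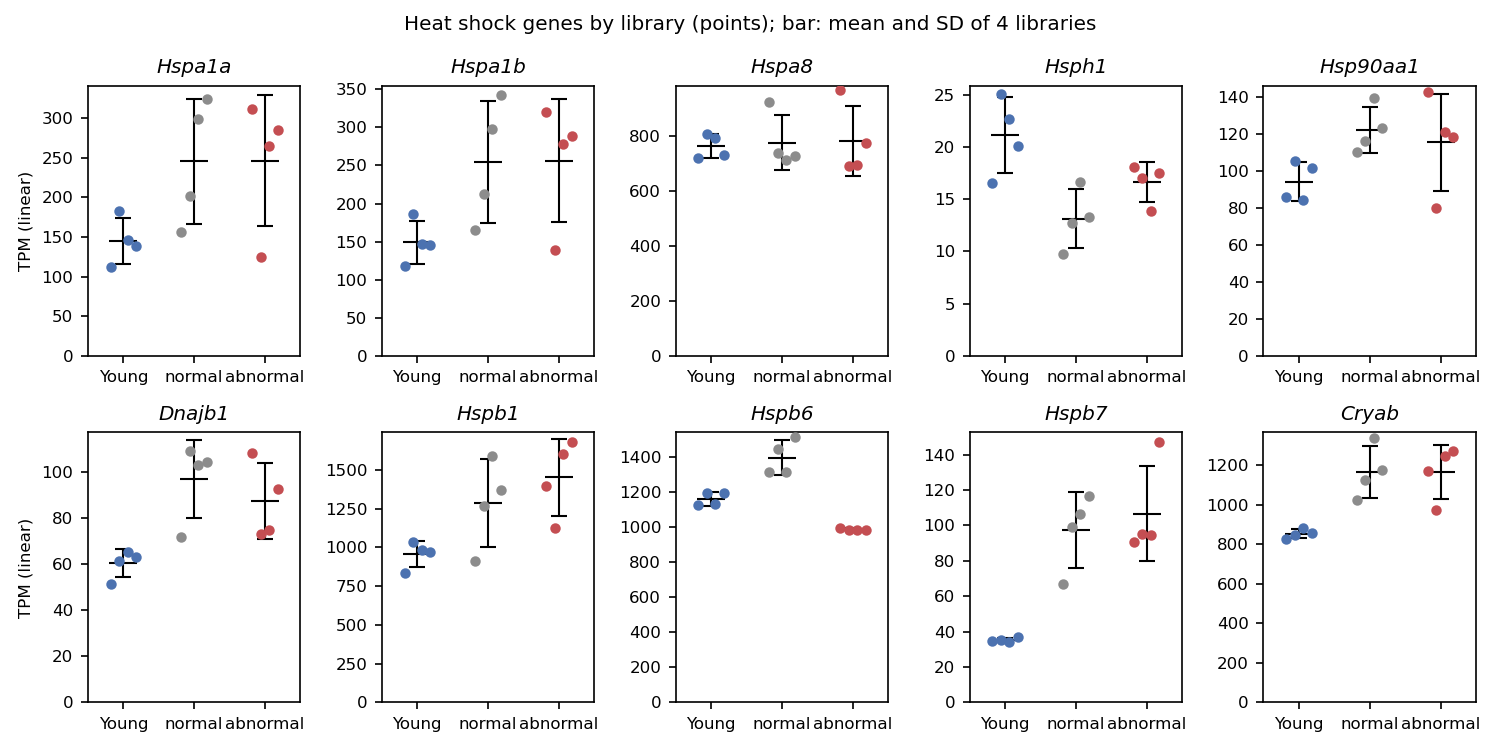
TPM on a linear axis from 0 for each of the 10 genes in the Young, Fluo-4 normal and Fluo-4 abnormal libraries; points are libraries in the order 1 to 4, and the black bar gives the mean and SD of 4. *Hspb7* lay above the Young range in all 8 aged libraries, and *Hspb6* in Fluo-4 abnormal fibers lay between 979 and 995 TPM, below every other library.

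*Hspa1a* and *Hspa1b* encode the stress-inducible HSP70 and lie close together on chromosome 17 (*Hspa1a*, chr17:35188166-35191132; *Hspa1b*, chr17:35175412-35178214, both on the minus strand). *Hspa1a* was at 112, 183, 146 and 138 TPM in Young libraries 1 to 4. It was at 157, 202, 299 and 324 in Fluo-4 normal fibers, and at 311, 125, 265 and 285 in Fluo-4 abnormal fibers. Fluo-4 abnormal library 2 lay inside the Young range, while the other 3 abnormal libraries lay above it. The mean was 1.70 times the Young mean in both kinds of aged fiber, a difference of 0.70 on the log2(TPM + 1) scale for abnormal (SE 0.28, adjusted p = 0.15, limma, Benjamini-Hochberg over 14429 genes) and of 0.72 for normal fibers (adjusted p = 0.28), neither of which passed the test. Without Fluo-4 abnormal library 2 the difference between abnormal and Young was 1.00 (adjusted p = 0.025), which passed. Abnormal and normal fibers differed by -0.01 (SE 0.28, adjusted p = 0.99), and this value was 0.28 without abnormal library 2. *Hspa1b* had nearly the same values as *Hspa1a*, from 118 to 187 TPM in Young, 166 to 343 in normal and 138 to 319.9 in abnormal fibers. The transcripts of the pair were 99.2% identical over 2201 bases, and the ratio of *Hspa1a* to *Hspa1b* stayed between 0.90 and 1.01 in the 12 libraries, so reads may be split between them and they are uncertain as separate measurements. Summed before the fit, the pair gave 0.72 (SE 0.27, adjusted p = 0.13) for abnormal against Young and 0.73 (adjusted p = 0.26) for normal against Young. Exons of *Hspa1a* overlap those of the non-coding gene *Gm20481* by 564 bases on the other strand, and unstranded libraries cannot separate such reads.

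*Hspa8*, the constitutive HSC70 (chr9:40711630-40731039, plus strand), was at 719.5, 808, 793 and 732 TPM in Young libraries. In Fluo-4 normal fibers it was at 926, 739, 713 and 730.1 TPM, and in Fluo-4 abnormal fibers at 968, 692, 697 and 774. Library 1 was the highest of both aged groups, and all 3 groups overlapped. The differences were 0.00 for abnormal against normal, 0.02 for abnormal against Young and 0.02 for normal against Young (SE 0.11 each, adjusted p = 0.99, 0.93 and 0.97), none past the test. With TMM-type factors they were -0.22, -0.15 and 0.07, so the sign of the first and second turned. Its 5 near-identical processed pseudogenes together held 39.4 to 67.0 TPM. Adding these to *Hspa8* left the differences at 0.00, 0.02 and 0.02.

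*Hsph1*, the HSP110 nucleotide exchange factor (chr5:149537636-149560156, minus strand), was the 1 member whose Young mean exceeded both aged means. It was at 16.6, 25.1, 22.7 and 20.1 TPM in Young libraries and at 9.77, 12.7, 16.7 and 13.3 in Fluo-4 normal libraries. In Fluo-4 abnormal libraries it was at 18.1, 17.1, 13.9 and 17.5 TPM. Normal and Young fibers met only at about 16.6 TPM, in Young library 1 and normal library 3. The difference of normal from Young was -0.65 (SE 0.16, adjusted p = 0.065), just outside the threshold. It passed with TMM-type scaling (-0.60, adjusted p = 0.028) and without Fluo-4 normal library 3 (-0.77, adjusted p = 0.042). For abnormal against Young it was -0.32 (SE 0.16, adjusted p = 0.25), with -0.48 (adjusted p = 0.030) under TMM-type scaling. Abnormal and normal fibers differed by 0.33 (SE 0.16, adjusted p = 0.20). Exons of *Hsph1* overlapped those of 2 non-coding genes on the other strand by 956 and 289 bases, and these unstranded libraries cannot separate such reads.

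*Hsp90aa1*, the inducible cytosolic HSP90 (chr12:110656842-110669166, minus strand), was at 85.8, 105, 84.3 and 101 TPM in Young fibers. In Fluo-4 normal fibers it was at 110.1, 116, 139 and 123 TPM, above all Young libraries. In Fluo-4 abnormal fibers the values were 143, 79.7, 121 and 118 TPM, so that library 2 was the lowest of the 12. The differences from Young, 0.37 for normal (SE 0.15, adjusted p = 0.28) and 0.27 for abnormal fibers (adjusted p = 0.31), did not pass the test. Without abnormal library 2 the latter was 0.43 (adjusted p = 0.038). Abnormal against normal gave -0.11 (SE 0.15, adjusted p = 0.68), and 0.06 without that library.

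*Dnajb1*, the J-domain partner of HSP70 (chr8:84334811-84339820, plus strand), rose in both kinds of aged fiber. It was at 51.6, 61.5, 65.5 and 63.0 TPM in Young, 71.8, 109, 103 and 104 in Fluo-4 normal and 108, 73.3, 75.0 and 92.8 in Fluo-4 abnormal libraries. All 8 aged libraries lay above the 4 Young ones. The difference from Young was 0.66 in normal (SE 0.15, adjusted p = 0.048) and 0.51 in abnormal fibers (SE 0.15, adjusted p = 0.046), both close to the threshold. The first call was lost without any 1 of the Young libraries or of normal libraries 2, 3 and 4 (adjusted p 0.087 to 0.13), and the second without any 1 of the Young libraries or of abnormal libraries 1 and 4 (adjusted p 0.068 to 0.14). Abnormal and normal fibers overlapped and differed by -0.15 (SE 0.15, adjusted p = 0.55).

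Among the small heat shock proteins, *Hspb7* and *Cryab* rose in both kinds of aged fiber, *Hspb1* rose in Fluo-4 abnormal fibers against Young, and *Hspb6* fell in Fluo-4 abnormal fibers against both other groups. *Hspb7*, a small heat shock protein of heart and skeletal muscle (chr4:141148090-141152625, plus strand), was at 34.7, 35.4, 33.9 and 37.1 TPM in Young libraries. It was at 66.8, 98.9, 107 and 117 TPM in Fluo-4 normal and at 90.6, 94.95, 94.4 and 147 in Fluo-4 abnormal libraries. The Young values spanned 3 TPM and lay below all aged ones. The mean was 2.76 times the Young mean in normal and 3.03 times in abnormal fibers. These were differences of 1.41 (SE 0.17, adjusted p = 0.0014) and 1.54 (SE 0.17, adjusted p = 0.00030), the largest among the members, and both passed under all 17 alternatives. Abnormal and normal fibers overlapped, with a difference of 0.13 (SE 0.17, adjusted p = 0.66).

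*Cryab*, αB-crystallin (chr9:50651859-50668567, plus strand), was at 828, 848, 885 and 856 TPM in Young fibers. It was at 1026, 1125, 1341 and 1175 TPM in Fluo-4 normal and at 1174, 972, 1249 and 1271 in Fluo-4 abnormal fibers, again above every Young library. The mean of both aged groups was 1167 TPM, 1.37 times the Young mean. The difference from Young was 0.44 in both (SE 0.09), with an adjusted p of 0.013 for abnormal and 0.044 for normal fibers. The call for normal fibers was lost without any 1 of the Young libraries or of normal libraries 2, 3 and 4 (adjusted p 0.084 to 0.13). Abnormal and normal fibers differed by -0.00 (SE 0.09, adjusted p = 1). The principal transcripts of *Cryab* and *Hspb2*, another small heat shock gene, start in opposite directions with 328 bases between them, and the exons of the genes overlap by 757 bases on opposite strands. Exons of *Cryab* also overlap those of the protein-coding gene *2310030G06Rik* by 871 bases on the other strand. Reads from these stretches cannot be separated in unstranded libraries. *Hspb2* was at 206 ± 10.2 TPM in Young, 198 ± 10.4 in normal and 229.7 ± 25.7 in abnormal fibers (SD, n = 4), and passed no comparison (adjusted p 0.11 to 0.82).

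*Hspb1*, known as HSP25 in the mouse (chr5:135916760-135918417, plus strand), was at 837, 1036, 980.1 and 972 TPM in Young fibers. It was at 909.5, 1265, 1587 and 1371 TPM in Fluo-4 normal fibers, of which library 1 lay inside the Young range. In Fluo-4 abnormal fibers it was at 1394, 1127, 1602 and 1678 TPM, above all Young libraries. The difference between abnormal and Young was 0.59 (SE 0.16, adjusted p = 0.036). It was no longer called without any 1 of the Young libraries or of abnormal libraries 1, 3 and 4 (adjusted p 0.056 to 0.11). Normal fibers differed from Young by 0.40 (adjusted p = 0.29) and abnormal from normal by 0.19 (adjusted p = 0.49). The processed pseudogene *Hsp25-ps1*, 99.4% identical over 630 bases, was listed at 102 to 127 TPM in Young, 119.5 to 177 in normal and 133 to 204 in abnormal libraries. With its values added, *Hspb1* differed by 0.59 between abnormal and Young (adjusted p = 0.033).

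*Hspb6*, known as HSP20 (chr7:30251603-30256218, plus strand), had another pattern. It was at 1123, 1190, 1127 and 1192 TPM in Young fibers, 1309, 1442, 1313 and 1510 in Fluo-4 normal fibers and 994.5, 982, 980.4 and 979 in Fluo-4 abnormal fibers. None of the groups overlapped, with normal highest and abnormal lowest. Abnormal fibers held 0.71 times the level of normal fibers, a log2 difference of -0.50 (SE 0.06, adjusted p = 0.00073). This call was made under all 17 alternatives, with adjusted p between 0.00019 and 0.026. Against Young the difference was -0.23 (SE 0.06, adjusted p = 0.035), and this call was lost without any 1 of the Young libraries or of abnormal libraries 2, 3 and 4 (adjusted p 0.065 to 0.10). Normal fibers lay 0.26 above Young (SE 0.06, adjusted p = 0.064), and without normal library 1 this passed (0.29, adjusted p = 0.042). Exons of *Hspb6* overlap those of *Lin37* by 464 and of *Proser3* by 198 bases on the other strand, and such reads cannot be separated here either.

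Counted together, 1 of the 10 members passed the test between Fluo-4 abnormal and Fluo-4 normal fibers (*Hspb6*, lower), where 9.35% of all genes did (7.36% higher and 1.99% lower). Between abnormal and Young fibers 5 of 10 passed, 4 higher and 1 lower, against 8.50% of all genes (6.09% higher and 2.41% lower). Between normal and Young fibers 3 of 10 passed, all higher, against 1.15% (0.561% higher and 0.589% lower). The groups did not overlap for 1, 5 and 5 members in these comparisons, against 14.0%, 16.2% and 7.98% of all genes. The median difference of the members was -0.00, 0.48 and 0.42, beside 0.10, 0.07 and -0.02 over all genes tested. Over genes with a mean of at least 5 TPM it was 0.20, 0.12 and -0.07. The members are well above the filter on low values, and low genes pass less often. With only the 6348 genes of at least 5 TPM in a group tested, 1, 5 and 5 members passed. Of all those genes 26.9%, 21.1% and 4.19% passed. The comparisons share libraries in pairs, so they are not independent of each other.

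The scaling moved some of these calls. Over the 5994 genes with a mean of at least 5 TPM, the median difference was 0.20 for abnormal against normal and 0.12 for abnormal against Young. With TMM-type factors, which set the bulk of genes equal, these medians were -0.01 and -0.05, and the split of all called genes turned from 1062 higher and 287 lower to 309 and 531 (abnormal against normal) and from 879 and 348 to 450 and 679 (abnormal against Young). With that scaling 3 members passed between abnormal and Young, against 7.84% of all genes. *Hspb7* was higher and *Hspb6* and *Hsph1* were lower, while *Dnajb1* (0.34, adjusted p = 0.15), *Hspb1* (0.42, adjusted p = 0.12) and *Cryab* (0.27, adjusted p = 0.19) did not pass. Between normal and Young 4 passed, against 1.64% of all genes, with *Dnajb1*, *Hspb7* and *Cryab* higher and *Hsph1* lower. Between abnormal and normal fibers *Hspb6* alone passed again, at -0.73 (adjusted p = 0.00064), against 5.83% of all genes. A negative difference was found for 9 of 10 members and for 7094 of 14402 genes.

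**Figure D2:**
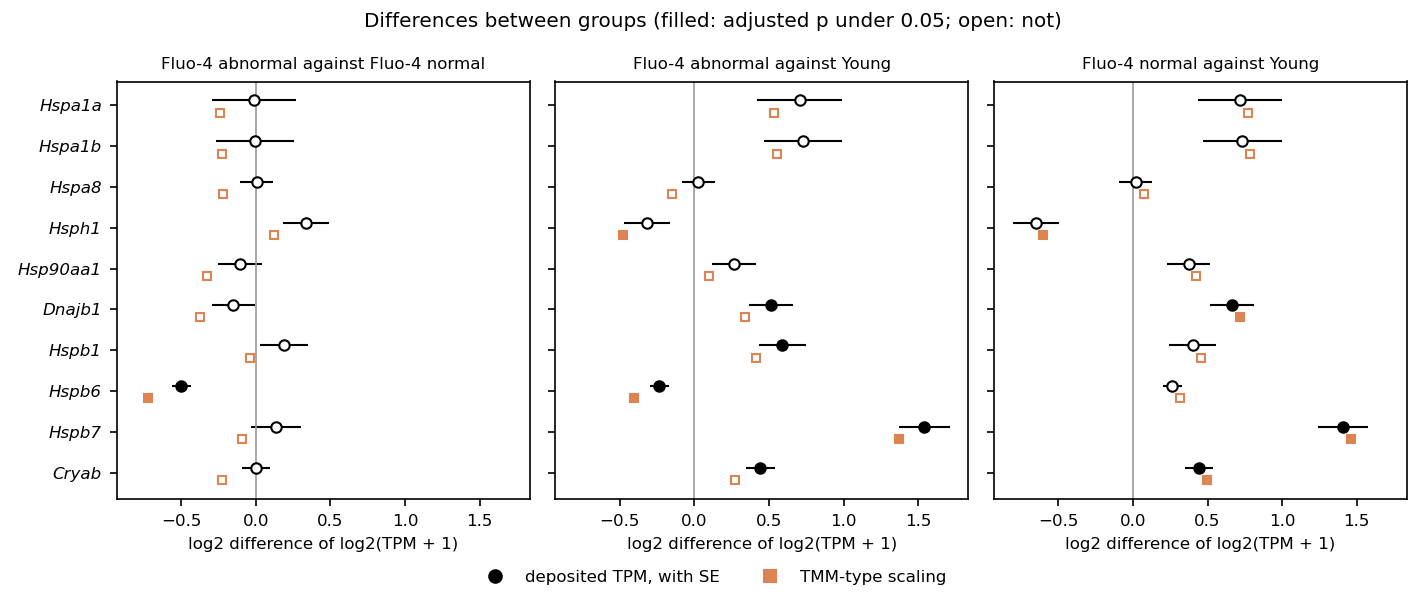
Differences between groups on the log2(TPM + 1) scale for the 10 genes in the 3 comparisons; black circles are from the deposited TPM with SE, orange squares after TMM-type scaling, and filled symbols passed at an adjusted p under 0.05. *Hspb7* stood 1.37 to 1.54 above Young under both scalings and *Hspb6* in abnormal fibers 0.50 to 0.73 below normal ones, whereas the sign of *Hspa8*, *Hspb1* and *Hspb7* between abnormal and normal fibers turned with the scaling.

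The members varied together from library to library to different degrees. Over the 12 libraries *Hspa1a* correlated with *Hsp90aa1* at r = 0.90 and with *Hspb1* at r = 0.88, and *Hspb1* with *Cryab* at r = 0.92. After the group means were removed these were 0.86, 0.85 and 0.92. *Hspa8*, *Hspb6* and *Hsph1* had lower r to *Hspa1a*, of 0.15, 0.10 and -0.17. After the group means were removed these were 0.13, 0.35 and 0.54. *Hsph1* correlated with *Dnajb1* at -0.35 over all libraries and at 0.71 within groups. All such values come from 12 libraries whose TPM share 1 total, and they are descriptions. Fluo-4 abnormal library 2 was the lowest of its group for *Hspa1a*, *Hspa1b*, *Hspa8*, *Hsp90aa1*, *Dnajb1*, *Hspb1* and *Cryab*, but not for *Hsph1*, *Hspb6* or *Hspb7*. Fluo-4 normal library 1 was the lowest of its group for 9 of the 10 genes and the highest for *Hspa8*.

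**Figure D3:**
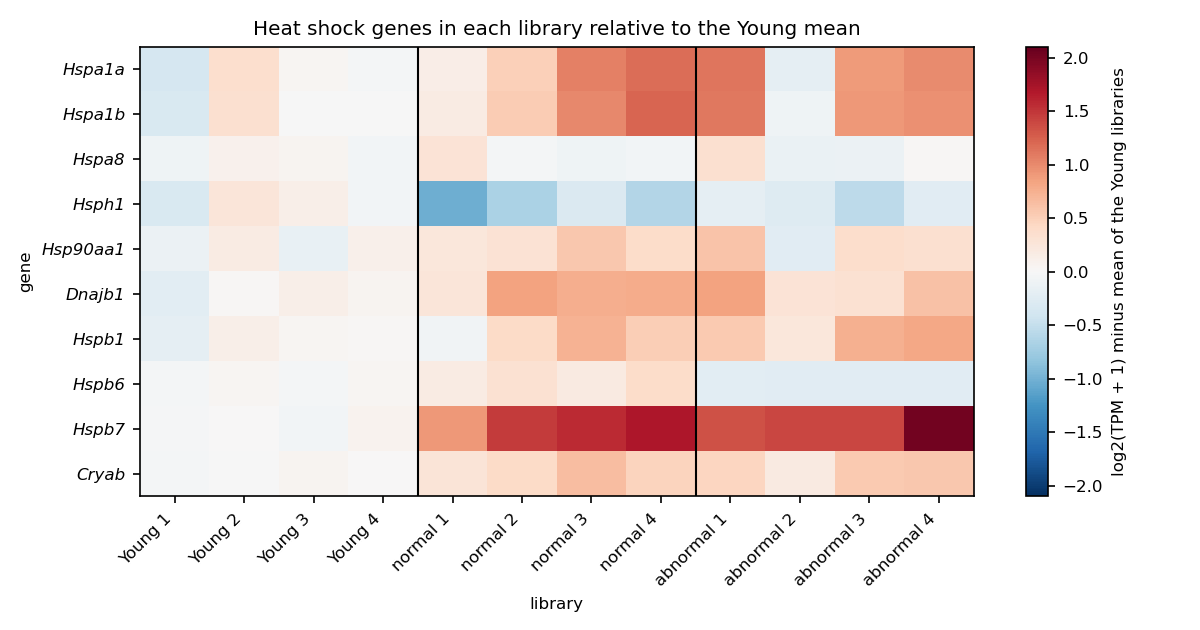
Color gives log2(TPM + 1) of each of the 10 genes (vertical) in each of the 12 libraries (horizontal) minus the mean of the Young libraries; red is higher and blue lower, and black lines separate the groups. *Hspb7* was red in all 8 aged libraries, *Hsph1* was blue in them, and abnormal library 2 was pale for *Hspa1a* and *Hspa1b*.

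The genes whose profile over the 12 libraries was most like the mean of *Hspa1a*, *Hspa1b*, *Hsph1* and *Dnajb1*, among 5984 other genes with a mean of at least 5 TPM, were *Cxcl10* (r = 0.88), *Jun* (0.88), *Atp6v1h* (0.86), *Srsf2* (0.83) and *Bag3* (0.82). *Bag3* encodes a partner of HSP70 and HSPB8 and ran from 12.0 to 27.9 TPM. For the mean of *Hspb1*, *Hspb6*, *Hspb7* and *Cryab* they were *Abra* (r = 0.93), *Acot2* (0.92), *Myl12a* (0.92), *Cxcl10* (0.91) and *Stom* (0.91). *Abra*, which encodes an actin-binding protein of striated muscle, ran from 78.9 to 182 TPM. *Cxcl10*, in both lists, ran from 0.231 to 18.8 TPM. These genes were picked as the highest of 5984 correlations over 12 libraries, and whether such r exceed chance was not tested. The first profile holds the near-identical *Hspa1a* and *Hspa1b* and also *Hsph1*, whose r to them was -0.17 and -0.21.

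Of 62 related genes (other HSP70, HSP90 and small heat shock proteins, J-domain partners, co-chaperones, heat shock factors, the TRiC chaperonin and prefoldin), 61 were tested. Between Fluo-4 abnormal and Fluo-4 normal fibers 6 passed (9.84%), all higher, against 9.35% of all genes. With the replicate number as a block 10 passed (16.4%), all higher, against 13% of all genes. Their median difference was 0.17, beside 0.10 over all genes and 0.20 over those with a mean of at least 5 TPM. Of the 61, 52 were positive, beside 10045 of 14429 genes. Abnormal and normal libraries did not overlap for 16 of the 61, all higher, against 14.0% of all genes. With TMM-type factors 26 were positive, beside 7173 of 14402 genes, and 2 passed (3.28%, against 5.83% of all genes). These were *Hspb8*, higher, and the J-domain gene *Dnaja4*, named after its values were seen, lower (-0.33, adjusted p = 0.040). *Hspb8*, a small heat shock protein that works with BAG3 in chaperone-assisted autophagy, had the smallest p. It was at 149, 218, 209 and 167 TPM in Young, 145, 203, 217 and 193 in normal and 269.6, 308, 305 and 331 in abnormal libraries. Every abnormal library exceeded all others. The difference was 0.69 against normal (SE 0.14, adjusted p = 0.0089) and 0.72 against Young fibers (SE 0.14, adjusted p = 0.0067). TMM-type scaling gave 0.46 (adjusted p = 0.015) and 0.55 (adjusted p = 0.0049). Normal fibers and Young differed by 0.03 (adjusted p = 0.97). *Hspb3*, a small heat shock protein of muscle, was at 84.7 ± 2.90, 84.8 ± 14.5 and 105 ± 4.89 TPM (SD, n = 4) in Young, normal and abnormal fibers and did not pass (adjusted p = 0.071 for abnormal against normal), but passed with the replicate number as a block (adjusted p = 0.046).

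*Dnajb6*, a J-domain protein that restrains protein aggregation, was at 46.9 to 54.3 TPM in Young, 43.4 to 57.2 in normal and 61.3 to 76.2 in abnormal libraries. It was higher in abnormal fibers by 0.42 against normal (SE 0.10, adjusted p = 0.019) and by 0.50 against Young (SE 0.10, adjusted p = 0.0075). Under TMM-type factors these were 0.19 (adjusted p = 0.17) and 0.33 (adjusted p = 0.016). The constitutive HSP90 gene *Hsp90ab1* was at 372 to 451 TPM in Young, 314 to 410.4 in normal and 439 to 521 in abnormal libraries. It was 0.39 higher in abnormal than in normal fibers (SE 0.09, adjusted p = 0.0197), and 0.17 higher under TMM-type factors (adjusted p = 0.19). Abnormal and Young fibers overlapped, and their difference of 0.26 did not pass (SE 0.09, adjusted p = 0.10). *Dnaja2*, another J-domain protein, and *Cct5*, a TRiC subunit, were 0.26 (adjusted p = 0.021) and 0.24 higher (adjusted p = 0.024) in abnormal than in normal fibers. Under TMM-type factors they were 0.04 and 0.02 higher. In Young, normal and abnormal fibers the means were 146.5, 139 and 167 TPM for *Dnaja2* and 140, 121 and 144 TPM for *Cct5*. With the replicate number as a block *Cct5* did not pass (adjusted p = 0.055). Between abnormal and Young fibers 4 of the 61 passed (6.56%), all higher, against 8.50% of all genes. The median of the 61 was 0.10 (-0.06 under TMM-type factors), beside 0.12 (-0.05) over genes with a mean of at least 5 TPM. Abnormal and Young libraries did not overlap for 15 of the 61, 14 higher and 1 lower, against 16.2% of all genes. Beside *Hspb8* and *Dnajb6* those passing were *Dnaja1*, a J-domain protein (0.58, SE 0.12, adjusted p = 0.011), and *Cdc37*, which loads kinases onto HSP90 (0.29, SE 0.07, adjusted p = 0.021). *Hsf4*, a heat shock factor at 1.49 to 3.27 TPM, came next at 0.45 (adjusted p = 0.061). Between normal and Young fibers 0 passed by limma, against 1.15% of all genes. An unadjusted p under 0.05 was found for 10 of the 61 and for 1865 of all 14429 genes. The median was -0.06, beside -0.07 over genes with a mean of at least 5 TPM. Normal and Young libraries did not overlap for 8 of the 61, all lower, against 7.98% of all genes. The smallest p were those of *Ppid* (-0.40, adjusted p = 0.10), *Cct5* (-0.21, adjusted p = 0.12), *Dnajb4* (0.50, adjusted p = 0.14), *Pfdn1* (-0.20, adjusted p = 0.17) and *Chordc1* (-0.41, adjusted p = 0.18).

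**Figure D4:**
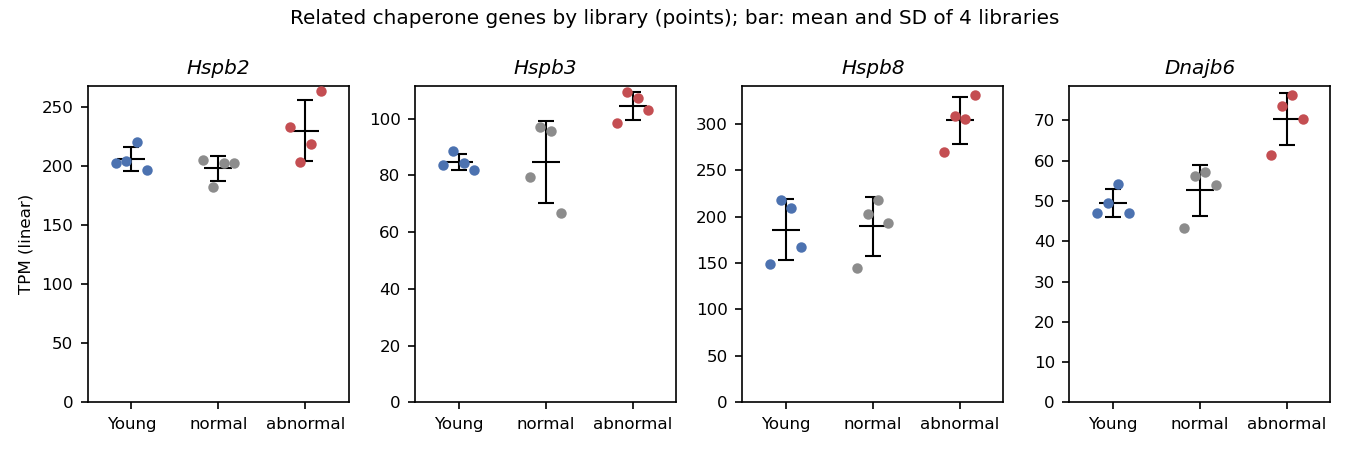
TPM on a linear axis from 0 for the small heat shock genes *Hspb2*, *Hspb3* and *Hspb8* and the J-domain gene *Dnajb6* in the 3 groups; points are libraries, and the bar gives the mean and SD of 4. *Hspb8* lay between 269.6 and 331 TPM in abnormal fibers and between 145 and 218 in all others.

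Immediate early genes, which are transcribed within minutes of a stimulus such as tissue dissociation, were read in the same libraries. The 26 listed summed to 2450 to 3107 TPM in Young, 1644 to 4283 in normal and 3163 to 4597 in abnormal libraries. Fluo-4 normal library 1 had the lowest sum (1644), and its *Hspa1a* was the lowest of the normal fibers. Abnormal library 2 had the highest sum (4597) and the lowest *Hspa1a* of the abnormal fibers (125 TPM). Of the 26, 1 passed between abnormal and normal (*Egr2*), or 3.85% against 9.35% of all genes. With the replicate number as a block 6 passed, or 23.1% against 13%, *Junb* and *Egr1* among them. Between abnormal and Young 3 passed (*Egr1*, *Atf3* and *Myc*), all higher, or 11.5% against 8.50%. That count was 12 without normal library 1, where 11.6% of all genes passed. It was 0 without any 1 of Young libraries 1, 2 and 4 and abnormal libraries 2 and 4, where 4.18% to 6.11% did. Between normal and Young 0 passed by limma, against 1.15% of all genes. An unadjusted p under 0.05 was found for 3 of the 26 and for 1865 of all 14429 genes. In the 3 comparisons, taken in this order, the groups did not overlap for 1, 11 and 0 of the 26, none lower. Of all genes 14.0%, 16.2% and 7.98% did not overlap. Positive differences were found for 22, 25 and 21 of the 26, beside 10045, 9575 and 6278 of 14429 genes. *Egr2*, *Atf3* and *Myc* are named after their values were seen. Medians were 0.24, 0.52 and 0.19, beside 0.10, 0.07 and -0.02 over all genes tested. Over genes with a mean of at least 5 TPM they were 0.20, 0.12 and -0.07. *Fos* was at 576 ± 102, 712 ± 251 and 853 ± 97.4 TPM and *Junb* at 345 ± 34.1, 397 ± 149.7 and 535 ± 119 (SD, n = 4) in Young, normal and abnormal fibers, and *Egr1*, at 246 ± 51.7, 295 ± 116 and 483 ± 84.9, differed by 0.98 between abnormal and Young (SE 0.28, adjusted p = 0.044). The part of digestion and staining in the heat shock transcripts was not tested.

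Fiber type and other cells were read in the same libraries. *Myh4*, the myosin of the fastest fibers, made up 96.9% to 98.6% of the 4 myosin heavy chain transcripts *Myh1*, *Myh2*, *Myh4* and *Myh7* in Young, 93.7% to 99.2% in normal and 98.9% to 99.7% in abnormal libraries. *Myh1* was at 147 to 262, 46.2 to 541.5 and 44.3 to 147 TPM in these groups, *Myh2* at 5.87 to 17.2, 2.38 to 34.6 and 3.74 to 10.6, and *Myh7* at or under 0.21 TPM in every library. With the *Myh4* share as a covariate, *Hspb7* against Young in both aged groups and *Hspb6* in abnormal against normal fibers passed again. *Hspb6* in abnormal fibers against Young (-0.21, adjusted p = 0.081) and *Dnajb1* (0.54, adjusted p = 0.125) and *Cryab* (0.41, adjusted p = 0.108) in normal fibers against Young did not. Mitochondrially-encoded transcripts took 7.35% to 8.01% of TPM in Young, 8.75% to 10.9% in normal and 4.75% to 6.92% in abnormal libraries. The 5 myofiber markers summed to 105100 to 137900 TPM. Against this, the summed markers of endothelial cells reached 22.2 TPM, of fibroblasts 82.4, of smooth muscle and pericytes 51.6, of immune cells 5.71, of satellite cells 2.45 and of adipocytes 2.77. Markers of Schwann cells summed to 0.773 to 1.81 TPM in Young, 1.42 to 6.32 in normal and 3.57 to 7.45 in abnormal libraries, and those of red blood cells to 33.1 to 121, 119 to 482 and 44.4 to 236. Immune markers summed to 0.79 to 1.98 TPM in Young, 1.08 to 1.69 in normal and 2.63 to 5.71 in abnormal libraries. The part of these 3 cell types in the heat shock transcripts was not tested.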

How the data were processed

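Myofibers of EDL muscle were profiled in 12 libraries, 4 each from Young, Fluo-4 normal and Fluo-4 abnormal fibers. From 10 ng of total RNA the authors made SMART-Seq v4 libraries, which keep no strand, and aligned reads to GRCm39 with DRAGEN 4.3; the annotation release is not given in the sources used here. The deposited values are TPM per gene, which keep no read depth, so neither counting intervals nor floors were computed, and the number of libraries limits the precision.

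Protein-coding and mitochondrially-encoded genes with a mean of at least 0.02 TPM in a group, the low-expression limit of the study, were tested on log2(TPM + 1) with limma 3.58.1 (R 4.3.3; 1 fit of the 3 groups, variance trend, Benjamini-Hochberg adjustment over all 14429 genes, call at adjusted p under 0.05). A fold change on this scale understates that of low genes. The procedure was tested on simulated data without pairs, with changes planted in genes of at least 5 TPM. Every planted change was larger than the called member differences other than those of *Hspb7*, so recovery of changes that small was not tested. Positions, exon overlaps and windows before gene starts came from GRCm39 with GENCODE vM39 (Python 3.11.15, pandas 2.3.3, pysam 0.24.0), and copies of at least 95% identity from BLAST 2.17.0. Alternatives were a TMM-type scaling (30% of ratios and 5% of levels trimmed), a pseudocount of 0.1, other filters, all annotated genes, no mitochondrially-encoded genes, the *Myh4* share as a covariate, 2 groups only, a replicate block and each library left out; summing near-identical copies was chosen after seeing the data.

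Libraries of the same number deviated together between abnormal and normal fibers (r = 0.55, 0.48, 0.48 and 0.34 over 3035 genes with a mean of at least 20 TPM, against -0.47 to 0.30 for other numbers), so these numbers were read as pairs, from the data and not from the labels. The main fit treated all libraries as independent, and its p-values do not use the pairs, which entered only in the replicate block.

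Named were all members, the 5 related genes with the smallest p in each comparison, the 3 immediate early genes with the highest mean, the 4 myosins and the 5 genes most like each of 2 profiles; *Hspb2* and *Hspb3* were added as the members' nearest relatives after their values were seen. The members and lists were chosen with earlier results of these data known.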

Additional observations from a re-analysis of the deposited data

Results flagged for a closer look

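In each of the 30 sets of 4 libraries (10 members in 3 groups), the library at either end was compared with the others by Dixon's ratio of its gap to the whole range against its 95% critical value, which chance passes in about 1 in 20 groups. *Hspa8* in Fluo-4 normal library 1, at 926 TPM, stood above the other 3 normal libraries (ratio 0.88). *Dnajb1* in the same library, at 71.8 TPM, stood below the others (0.83). *Hspb7* in Fluo-4 abnormal library 4, at 147 TPM, stood above the others of its group (0.92), and without it the difference of *Hspb7* between abnormal and normal fibers was -0.03 in place of 0.13, neither past the test.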

How the results depend on the processing

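Of the member calls, *Hspb6* between abnormal and normal fibers and *Hspb7* between each aged group and Young were made under every alternative run. Of the single-gene results under alternatives, 431 kept direction and side of the threshold, 51 lost a call, 11 gained one and 32 changed sign, none of these 32 with a call. A percentage in brackets in this paragraph is the share of all genes called in that setting and comparison. Members passing between abnormal and Young (5, 8.50%) were 3 with TMM-type factors (7.84%) and with no filter (7.02%). They were also 3 with all annotated genes (4.77%) and with the replicate block (10.4%). Between normal and Young (3, 1.15%) they were 1 with no filter (0.78%) and with all annotated genes (0.537%). With the *Myh4* share they were 1 (0.79%), and with a filter of 5 TPM 5 (4.19%). Related genes passing between abnormal and normal (6, 9.35%) were 2 with TMM-type factors (5.83%), 3 without mitochondrially-encoded genes (6.59%) and 12 with a filter of 5 TPM (26.9%). They were 2 with only the 2 groups (5.29%) and 10 with the replicate block (13%). Between abnormal and Young (4, 8.50%) they were 9 with the *Myh4* share (8.96%), 9 with only the 2 groups (10.3%) and 11 with the block (10.4%). Between normal and Young (0, 1.15%) they were 1 with TMM-type factors (1.64%). Immediate early genes passing between abnormal and normal (1, 9.35%) were 0 with TMM-type factors (5.83%), without mitochondrially-encoded genes (6.59%) and with no filter (7.85%). They were also 0 with all annotated genes (5.09%) and with only the 2 groups (5.29%). They were 2 with a filter of 5 TPM (26.9%), 4 with the *Myh4* share (5.68%) and 6 with the block (13%). Between abnormal and Young (3, 8.50%) they were 5 with a pseudocount of 0.1 (8.54%), 0 with no filter (7.02%) and 0 with all annotated genes (4.77%). They were 7 with a filter of 5 TPM (21.1%) and 13 with the *Myh4* share (8.96%). With only the 2 groups they were 12 (10.3%) and with the block 13 (10.4%). With 1 library left out, 4.61% to 10.1% of all genes passed between abnormal and normal and 4.18% to 11.6% between abnormal and Young. Between normal and Young 0.382% to 1.43% did. Leaving out 1 library gave 2 (without any Young library or abnormal 4) to 7 members (without abnormal 2) between abnormal and Young, and 1 (without any Young library or normal 2 or 4) to 4 (without normal 1) between normal and Young. It gave 3 (without abnormal 2 or 3) to 9 related genes (without normal 3) between abnormal and normal, 3 (without Young 3 or 4 or abnormal 2) to 9 (without normal 1) between abnormal and Young, and 0 to 1 (without normal 1) between normal and Young. For immediate early genes it gave 0 (without any Young library, normal 1 or 4 or abnormal 2, 3 or 4) to 3 (without normal 3) between abnormal and normal, 0 (without Young 1, 2 or 4 or abnormal 2 or 4) to 12 (without normal 1) between abnormal and Young, with 1 without abnormal 3, and 0 to 2 (without normal 1) between normal and Young. The sign between abnormal and normal fibers changed with the *Myh4* share for *Hspa1a* (0.032), *Hspa1b* (0.042), *Hspa8* (-0.197), *Dnajb1* (0.102) and *Cryab* (0.068), with TMM-type factors for *Hspa8* (-0.221), *Hspb1* (-0.037) and *Hspb7* (-0.090), and without mitochondrially-encoded genes for *Hspa8* (-0.056). Against Young, abnormal fibers gave -0.148, -0.0053 and -0.079 for *Hspa8* with TMM-type factors, without mitochondrially-encoded genes and with the *Myh4* share. With 1 library left out, the abnormal-against-normal difference ran from -0.21 to 0.28 for *Hspa1a*, -0.19 to 0.27 for *Hspa1b*, -0.10 to 0.092 for *Hspa8*, -0.22 to 0.060 for *Hsp90aa1*, -0.035 to 0.23 for *Hspb7* and -0.061 to 0.084 for *Cryab*, and *Hspa8* against Young from -0.082 to 0.079 (abnormal) and -0.067 to 0.058 (normal). The cause of these shifts was not tested. The replicate block changed no member call between abnormal and normal fibers. Young fibers come from other mice, and not every library deviated most like its own number there (r from -0.13 to 0.27 for equal numbers), so the block count of 3 members against 5 (abnormal) and 4 against 3 (normal) is given only as a count. TPM keeps no depth, so the read count behind low genes such as *Hsph1* is unknown.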
